A study of Mus musculus with 6 samples.

Results

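The 10 genes that were followed mark capillary pericytes: Pdgfrb, Rgs5, Abcc9, Kcnj8, Vtn, Higd1b, Ndufa4l2, Notch3, Anpep and Atp13a5. They were taken by symbol, all 10 were found among the 24421 rows of the count file, and all 10 passed the filter on low counts in every fit.

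Brain pericytes are contractile and barrier-supporting cells embedded in the basement membrane of capillaries, where they sit on the endothelium. They are recruited and kept by PDGF-B, which endothelial cells release and which pericytes sense through the receptor PDGFRβ. Their resting voltage is set by an ATP-sensitive potassium channel of Kir6.1 and SUR2 subunits, and NOTCH3 carries contact signals from the endothelium into mural cells. The proteoglycan NG2, encoded by Cspg4, is made both by oligodendrocyte precursors and by pericytes, so a Cre recombinase driven from NG2 sequences is known to tag both kinds of cell.

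Every mouse carried the tamoxifen-inducible NG2CreERTM driver and a Cre-activated HA tag on the ribosomal protein Rpl22 (Rpl22HA/+), the RiboTag design in which ribosomes of recombined cells are pulled down with an HA antibody. The icKO mice (NG2CreERTM;Ank3F/F;Rpl22HA/+) had in addition 2 floxed copies of Ank3, which encodes ankyrin-G, a scaffold beneath the cell membrane, and the control mice (NG2CreERTM;Rpl22HA/+) did not. Both genotypes received tamoxifen at 100 mg/kg per day for 5 days from 8 weeks of age and were analysed 1 month later, and whole brains of 3 animals were pooled for each library. The 6 libraries were 2 icKO immunoprecipitates (IP), 1 icKO input, 2 control IPs and 1 control input, the input being 10% of the cleared homogenate kept before the pull-down. The study compared the RNA on tagged ribosomes between the 2 genotypes. The driver does not separate precursors from pericytes, so any Ank3 deletion it made could fall in both.

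Library totals ran from 18968806 to 23930812 counts. Levels are given as CPM, read counts scaled to a common library size with TMM factors over the 6 libraries, and the floor of 3 counts stood at 0.125 to 0.158 CPM, under every value given below for the 10 genes. Ank3 itself, counted over the whole gene, was at 1163 and 1166 CPM in icKO IPs, 347 CPM in icKO input, 1386 and 1357 CPM in control IPs and 382 CPM in control input, which checks the genotype labels only weakly because the deleted exons are not given. The labels call all samples oligodendrocytes. In the IPs stood above input, among other groups described further on, the 10 pericyte genes, 14 of 14 oligodendrocyte precursor genes and 19 of 20 mature oligodendrocyte genes, while 12 of 12 neuronal, 10 of 10 astrocyte and 10 of 10 microglial genes were below input (edgeR's quasi-likelihood test, adjusted p under 0.05). Of the 15451 genes tested, 34.8% were called above input and 35.1% below it.

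The sequences just before and around the start of these genes are shown for the potassium channel pair, Kcnj8 and Abcc9, which lie next to each other in the genome and whose products form 1 channel, and for Vtn, the gene with the most counts of the 10. Kcnj8 (ENSMUSG00000030247.9) occupies chr6:142564837-142571614 on the minus strand of mm10 and Abcc9 (ENSMUSG00000030249.15) chr6:142587862-142702315 on the same strand, 16.2 kb apart with 0 annotated genes between them in GENCODE vM21. Vtn (ENSMUSG00000017344.4) occupies chr11:78499091-78502324 on the plus strand. Each window has 250 bases before and 50 bases after the RefSeq gene start (GRCm38.p6): chr6:142571565-142571864, minus strand, for Kcnj8, chr6:142702225-142702524, minus strand, for Abcc9, and chr11:78498870-78499169, plus strand, for Vtn. They are written 5′ to 3′ on the strand of the gene, with capitals marking TGGGAA or its reverse complement TTCCCA, the core letters bound by RBPJ, the DNA-binding partner of Notch receptors.
Kcnj8: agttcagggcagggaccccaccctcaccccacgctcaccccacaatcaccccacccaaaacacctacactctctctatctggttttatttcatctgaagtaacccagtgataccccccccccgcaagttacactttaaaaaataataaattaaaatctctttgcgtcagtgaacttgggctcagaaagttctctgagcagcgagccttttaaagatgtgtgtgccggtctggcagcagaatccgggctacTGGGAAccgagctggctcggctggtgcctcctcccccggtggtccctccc
Abcc9: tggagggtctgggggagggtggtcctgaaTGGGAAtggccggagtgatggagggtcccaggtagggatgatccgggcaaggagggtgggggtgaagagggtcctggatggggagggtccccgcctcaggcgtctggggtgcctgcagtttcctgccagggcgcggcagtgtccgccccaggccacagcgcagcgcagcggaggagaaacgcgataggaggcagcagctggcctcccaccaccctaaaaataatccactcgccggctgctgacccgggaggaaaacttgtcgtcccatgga
Vtn: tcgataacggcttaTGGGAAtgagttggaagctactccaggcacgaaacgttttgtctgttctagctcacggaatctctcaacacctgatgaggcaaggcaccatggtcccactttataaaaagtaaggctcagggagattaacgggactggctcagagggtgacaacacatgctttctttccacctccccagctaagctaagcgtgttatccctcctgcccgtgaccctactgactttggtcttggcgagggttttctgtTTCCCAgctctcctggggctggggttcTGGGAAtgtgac

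RefSeq windows were matched for 7 of the 10 genes. Windows on chromosome 18, which holds Pdgfrb, were left out of this matching, so Pdgfrb was not searched. No window was matched for Higd1b or Ndufa4l2. The letters TGGGAA, on either strand, were found in 3 of those 7, once in Kcnj8, once in Abcc9 and 3 times in Vtn, and in 25.6% of 32851 mouse promoter windows of the same length. The T-box core AGGTGT was found in Kcnj8 and Vtn, 2 of 7, and in 13.7% of all windows. The TATA letters TATAAA were found in Vtn, 1 of 7, against 13.6% of all windows. CCAAT was found in Rgs5 and Atp13a5, 2 of 7, against 37.4%, and the hypoxia element core ACGTG in Notch3, 1 of 7, against 19.6%. The forkhead letters GTAAACA were found in 0 of 7 and in 3.65% of all windows. These are matches of letters only and describe no binding.

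The pericyte genes were concentrated in the pull-down and were lower in it when Ank3 was floxed. Summed over the 10 genes, 1039 and 1053 CPM were read in icKO IPs, 123 CPM in icKO input, 1956 and 1976 CPM in control IPs and 125.4 CPM in control input. The input sums were thus close to each other, with a ratio of icKO over control of 0.981, whereas the ratio of the mean IP levels was 0.532. Single genes differed in both directions between the inputs. The ratio was 0.676 for Rgs5, 0.692 for Abcc9, 0.619 for Kcnj8 and 1.89 for Anpep. The sum in the IP stood 8.51-fold above input in icKO brains and 15.7-fold above it in control brains. Each of the 10 genes was lower in both icKO IPs than in either control IP, as were 36.7% of the 15069 genes tested. Each was also higher in all 4 IPs than in both inputs, as were 36.9% of 15451 genes.

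**Figure D1:**
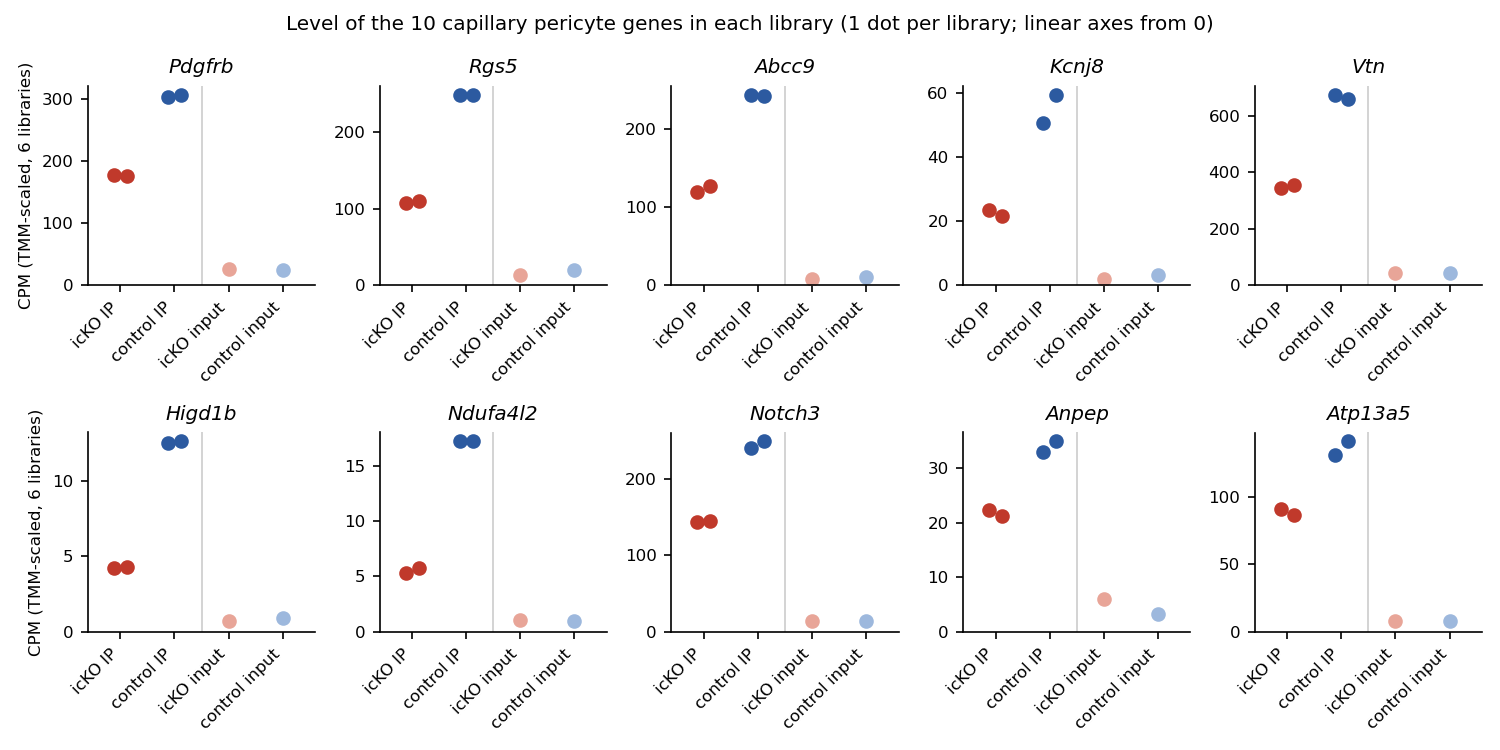
CPM of each of the 10 genes (vertical axes, linear from 0) in icKO IP (red, 2 libraries), control IP (blue, 2), icKO input (pale red, 1) and control input (pale blue, 1), 1 dot per library. Every red dot of the IP lies below the blue dots of the IP, and all inputs lie far below the IPs, with Pdgfrb at 177 and 176 CPM in icKO IPs and 303 and 307 CPM in control IPs.

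Between IPs, all 10 genes fell in icKO relative to control, with log2 changes from -1.64 to -0.61 and a median of -0.96, against a median of 0.00 over the 15069 genes tested (edgeR's quasi-likelihood test, Benjamini-Hochberg adjusted over all of them). This direction held for all 10 genes with every scaling tried but 1: scaled to mature oligodendrocyte genes, which moves the median of all genes up by 0.69, Anpep stood at 0.05 and Atp13a5 at 0.08 with adjusted p of 0.613 and 0.134. Of all genes tested, 22.1% were called higher and 25.2% lower, so 0 higher and 10 lower among 10 is read against those shares. In bulk RNA of this kind, fewer tagged pericytes and less ribosome-bound RNA per pericyte cannot be told apart. With 2 libraries a group, each p-value reflects nothing but the spread of these pools. That spread was estimated with information shared over all genes tested, not from each gene alone. It was small: the common biological coefficient of variation was 3.01%.

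The receptor that keeps pericytes on the vessel was the first of the surface molecules. Pdgfrb (ENSMUSG00000024620.11, chromosome 18, 61045150 to 61085061, plus strand), which encodes PDGFRβ, was at 177 and 176 CPM in icKO IPs and 26.0 CPM in icKO input, against 303 and 307 CPM in control IPs and 24.4 CPM in control input. The IP groups did not overlap and differed by many times the gap within either pair. The log2 change between IPs was -0.79 ± 0.03 (SE), a 1.73-fold lower level in icKO, and passed edgeR's quasi-likelihood test (adjusted p = 1.07e-19). Notch3 (ENSMUSG00000038146.8, chromosome 17, 32120820 to 32166852, minus strand), the Notch receptor of mural cells, was at 144 and 145 CPM in icKO IPs and 14.2 CPM in icKO input, against 241 and 249 CPM in control IPs and 13.3 CPM in control input. Its change was of much the same size, -0.76 ± 0.04 (adjusted p = 2.22e-18). Scaled to mature oligodendrocyte genes it was -0.07 with adjusted p = 0.0559. An antisense gene, Gm17276, covers 6.03% of the exon bases of Notch3, and its reads cannot be separated here because the strand setting of the counting is not given in the sources used here. Anpep (ENSMUSG00000039062.15, chromosome 7, 79821803 to 79861059, minus strand) encodes aminopeptidase N, the surface peptidase CD13. Its CPM was 22.3 and 21.3 in icKO IPs and 6.04 in icKO input, against 33.1 and 35.0 in control IPs and 3.15 in control input. The change between IPs, -0.64 ± 0.08 (adjusted p = 1.1e-07), was among the 2 smallest of the 10, and scaled to endothelial genes it was -0.19 with adjusted p = 0.0644.

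The channel genes changed further. Kcnj8, which encodes the pore subunit Kir6.1, was at 23.4 and 21.5 CPM in icKO IPs and 2 CPM in icKO input, against 50.7 and 59.4 CPM in control IPs and 3.28 CPM in control input. Abcc9, which encodes the regulatory subunit SUR2, was at 120 and 127 CPM in icKO IPs and 7.45 CPM in icKO input, against 244 and 243 CPM in control IPs and 10.8 CPM in control input. For both genes the IP groups were far apart, and the icKO input was also the lower of the inputs. The log2 change between IPs was -1.29 ± 0.08 for Kcnj8 (2.45-fold lower, adjusted p = 6.25e-15) and -0.98 ± 0.04 for Abcc9 (1.97-fold lower, adjusted p = 1.01e-20). Kcnj8 made up 16.4% and 14.5% of the counts of the pair, scaled as CPM, in icKO IPs and 21.1% in icKO input, and 17.2% and 19.6% in control IPs and 23.3% in control input. The nearest IP values of the 2 genotypes, 16.4% and 17.2%, lay closer together than the control pair. The antisense gene 5330439B14Rik covers 1.89% of the Abcc9 exon bases.

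Among signalling and secreted products, Rgs5 (ENSMUSG00000026678.10, chromosome 1, 169655501 to 169695813, plus strand) encodes a regulator that shortens G-protein signals in mural cells. It was at 108 and 110 CPM in icKO IPs and 13.0 CPM in icKO input, against 249 and 249 CPM in control IPs and 19.2 CPM in control input. Here too the IP pairs were tight and separate, and the change was -1.19 ± 0.04 (2.28-fold lower, adjusted p = 2.93e-23). Vtn encodes vitronectin, a matrix glycoprotein that pericytes secrete onto the endothelium. Its CPM was 344 and 356 in icKO IPs and 44.4 in icKO input, against 675 and 662 in control IPs and 41.4 in control input, a change between IPs of -0.93 ± 0.03 (1.91-fold lower, adjusted p = 6.71e-24). Vtn took a like share of the 10 genes' CPM in all 6 libraries: 33.1% and 33.8% in icKO IPs, 36.1% in icKO input, 34.5% and 33.5% in control IPs and 33.0% in control input.

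The largest falls were those of 2 short genes linked to mitochondria. Ndufa4l2 (ENSMUSG00000040280.10, chromosome 10, 127514967 to 127517154, plus strand), a hypoxia-induced relative of a respiratory chain subunit, was at 5.31 and 5.74 CPM in icKO IPs and 1.07 CPM in icKO input, against 17.2 and 17.2 CPM in control IPs and 1 CPM in control input. Higd1b (ENSMUSG00000020928.14, chromosome 11, 102835849 to 102838040, plus strand), of the hypoxia-inducible domain family, was at 4.24 and 4.25 CPM in icKO IPs and 0.73 CPM in icKO input, against 12.5 and 12.6 CPM in control IPs and 0.912 CPM in control input. The IP groups did not overlap for either gene. The inputs of both genotypes lay near each other but held few counts. Ndufa4l2 had 22 counts in icKO input and 22 in control input (95% interval of the log2 ratio, counting error only, -0.83 to 1.02). Higd1b had 15 and 20 (-1.39 to 0.72). The log2 change between IPs was -1.64 ± 0.13 for Ndufa4l2 (3.11-fold lower, adjusted p = 5.39e-12) and -1.56 ± 0.15 for Higd1b (2.95-fold lower, adjusted p = 3.16e-10), and 18 and 25 of the 15069 genes tested fell further. Their merged exons span 1095 and 847 bases, the shortest of the 10. Over all genes the change between IPs moved with length, from a median of -0.15 in the 1092 genes of up to 1500 exon bases to 0.11 in the 4630 genes over 6000. With that trend taken out, the changes of Ndufa4l2 and Higd1b were -1.40 and -1.31. Atp13a5 (ENSMUSG00000048939.13, chromosome 16, 29231851 to 29378732, minus strand), a P5-type transport ATPase, had the smallest change, -0.61 ± 0.05 (1.53-fold lower, adjusted p = 9.6e-13). It was at 91.0 and 86.6 CPM in icKO IPs and 8.23 CPM in icKO input, against 131 and 141 CPM in control IPs and 7.93 CPM in control input.

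**Figure D2:**
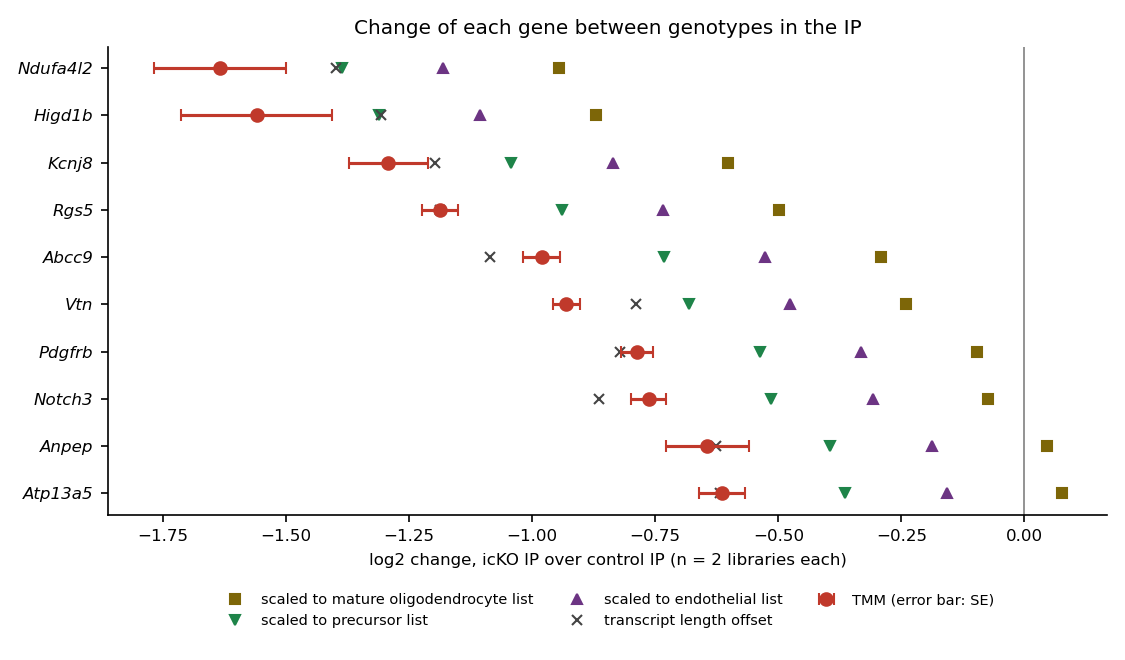
Log2 change of each gene, icKO IP over control IP (horizontal axis, 2 libraries each), with the SE as bars for TMM scaling (circles), and the same change with libraries scaled to mature oligodendrocyte (squares), precursor (down triangles) or endothelial genes (up triangles) or with the length trend removed (crosses). Circles run from -1.64 for Ndufa4l2 to -0.61 for Atp13a5, and only the squares of Anpep and Atp13a5 lie above 0, at 0.05 and 0.08.

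Other genes of the IP moved as well, and the choice of scale sets how far the pericyte genes stand from them. The 20 mature oligodendrocyte genes summed to 17780 and 17640 CPM in icKO IPs, against 28510 and 28670 CPM in control IPs, and 1 rose and 19 fell (median log2 -0.75 with TMM). The 14 precursor genes summed to 7613 and 7647 CPM in icKO IPs, against 9038 and 9122 CPM in control IPs, and 0 rose and 12 fell (median -0.26), though scaled to mature oligodendrocyte genes 12 rose and 0 fell. Cspg4, the gene of NG2 itself, was at 935 and 971 CPM in icKO IPs and 22.9 CPM in icKO input, against 893 and 906 CPM in control IPs and 21.8 CPM in control input. It is shared by precursors and pericytes and rose slightly with TMM, by 0.08 ± 0.02 (adjusted p = 0.00411), but stood at 0.00 with library totals (adjusted p = 0.97) and at -0.08 with the length trend taken out (adjusted p = 0.00793). Scaled to the precursor genes, which moves the median of all genes up by 0.25, all 10 pericyte genes were still called lower, from -1.39 for Ndufa4l2 to -0.36 for Atp13a5. Scaled to mature oligodendrocyte genes the 10 had a median of -0.27, beside 0.69 for all genes, with 0 called higher and 7 lower. How far the changes of the oligodendroglial genes in the same libraries bear on the pericyte values was not tested.

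Set per kilobase of exon, so that genes can be compared with each other, Vtn was the highest of the 10 in every group. Its level was 172 ± 4.07 CPM per kb in icKO IPs and 329 ± 4.5 CPM per kb in control IPs (SD, n = 2 each). Pdgfrb followed at 32.2 ± 0.145 CPM per kb in icKO IPs and 55.7 ± 0.573 in control IPs, and Rgs5 at 24.0 ± 0.353 in icKO IPs and 54.8 ± 0.00268 in control IPs. Below them in icKO IPs came Atp13a5 (19.1 ± 0.669), Notch3 (17.8 ± 0.0439), Abcc9 (14.7 ± 0.63) and Kcnj8 (8.82 ± 0.53), and the lowest were Anpep (5.27 ± 0.163), Ndufa4l2 (5.05 ± 0.278) and Higd1b (5.01 ± 0.011), of which Ndufa4l2 overlapped both others. In control IPs Notch3 (30.3 ± 0.7), Atp13a5 (29.2 ± 1.63) and Abcc9 (29.1 ± 0.1) followed, Atp13a5 overlapping both others, and Kcnj8 (21.6 ± 2.4), Ndufa4l2 (15.7 ± 0.0201) and Higd1b (14.8 ± 0.0874) came next, and Anpep was lowest at 8.24 ± 0.322. In the inputs Vtn stood at 21.9 CPM per kb in icKO and 20.4 in control, and the other 9 genes at 0.783 to 4.74 in icKO and 0.761 to 4.46 in control.

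The pull-down was then compared with input, to ask how far tagged ribosomes carried pericyte RNA. All 10 genes rose in IP over input in the fit of the 6 libraries with genotype as a term, by 5.96-fold (Anpep) to 19.6-fold (Abcc9), with a median log2 of 3.44 against 0.01 over the 15451 genes tested. The largest adjusted p of the 10 was 1.89e-05 (edgeR's quasi-likelihood test). Of all genes, 34.8% were called higher in IP and 35.1% lower. Abcc9 had the steepest rise, and only 34 genes of all tested rose further. Next came Kcnj8 (14.3-fold), Notch3 (13.7-fold) and Atp13a5 (13.6-fold), then Vtn (11.1-fold), Rgs5 (10.6-fold), Ndufa4l2 (10.3-fold), Higd1b (9.79-fold) and Pdgfrb (9.15-fold). Without 1 of the inputs, that fit takes the enrichment from the other genotype alone. The values so obtained therefore restate the enrichment within each genotype, given next, and do not check the single inputs. For 3 genes they lay over 1.5-fold from the value of all 6 libraries. On the log2 scale, without control input Anpep was at 1.85, Higd1b at 2.53 and Ndufa4l2 at 2.36, and without icKO input Anpep was at 3.44, Higd1b at 3.78 and Ndufa4l2 at 4.10, against 2.57, 3.29 and 3.36 with all 6 libraries.

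Taken genotype by genotype, the enrichment was smaller in icKO brains for all 10 genes. It ran from 3.61-fold (Anpep) to 16.5-fold (Abcc9) in icKO brains and from 10.8-fold (Anpep) to 22.5-fold (Abcc9) in control brains. The difference of the log2 enrichment, icKO minus control, was tested over the 4 groups, and the single inputs were taken to have the spread of the paired IPs. It was below 0 and called for 8 of 10 genes, where 10.3% of all genes were called higher and 14.2% lower. The median of the 10 genes was -0.87. The marker genes of the other tagged cells moved the same way, with 18 of 20 mature oligodendrocyte genes called lower (median -0.75) and 12 of 14 precursor genes (median -0.55). Fewer were called in the lists most like the 10 genes, described further on. Of 23 other pericyte genes, 0 were called higher and 9 lower (median -0.53). Of 15 vascular smooth muscle genes, 0 were called higher and 5 lower (median -0.63). Whether the 10 genes differ from any of these lists was not tested. The largest differences were -1.73 ± 0.47 for Ndufa4l2 (5.13-fold in icKO, 17.0-fold in control, adjusted p = 0.00706) and -1.59 ± 0.24 for Anpep (3.61-fold in icKO, 10.8-fold in control, adjusted p = 9.97e-06). Of the genes that passed, Vtn came next at -1.03 ± 0.08 (7.88-fold in icKO, 16.1-fold in control, adjusted p = 8.07e-12). Kcnj8 at -0.58 ± 0.33 (adjusted p = 0.216) and Higd1b at -1.24 ± 0.54 (adjusted p = 0.0969) did not pass, with 41 and 15 counts in icKO input and 72 and 20 counts in control input. Abcc9, at -0.45 ± 0.16 (adjusted p = 0.0382), passed with all libraries and was at -0.40 (adjusted p = 0.0509) without icKO IP replicate 1.

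**Figure D3:**
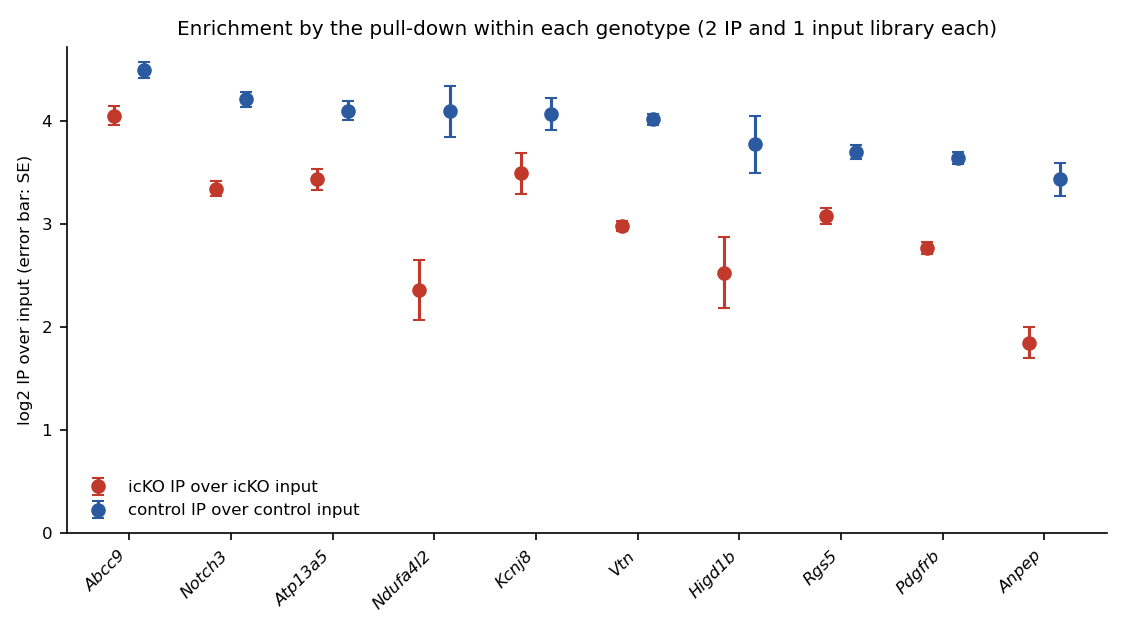
Log2 IP over input (vertical axis, from 0) of each gene within icKO (red) and control (blue) brains, 2 IP libraries and 1 input library each, bars showing the SE. Red points lie below blue points for all 10 genes, least for Abcc9 (16.5-fold in icKO, 22.5-fold in control) and most for Ndufa4l2 (5.13-fold in icKO, 17.0-fold in control).

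The inputs carry RNA of the whole brain, tagged or not, and had 1 library per genotype, so their differences have no replicate check and the 95% intervals (exact binomial) cover counting error only. For 6 of the 10 genes the interval of the log2 ratio of icKO over control covered 0. Pdgfrb was among them, with 533 counts in icKO input and 536 in control input (0.09, interval -0.09 to 0.26), as were Vtn with 912 and 908 (0.10, interval -0.03 to 0.24) and Notch3 with 292 and 291 (0.10, interval -0.14 to 0.34). Rgs5 (266 counts in icKO, 421 in control, -0.56, interval -0.79 to -0.34), Abcc9 (153 in icKO, 237 in control, -0.53, interval -0.84 to -0.24) and Kcnj8 (41 in icKO, 72 in control, -0.69, interval -1.31 to -0.14) were lower in icKO input. Anpep was 1.89-fold higher, with 124 counts in icKO input and 69 in control input (0.92, interval 0.51 to 1.39). Past 1.5-fold stood 1 gene higher, Anpep, and 1 lower, Kcnj8, where 4.39% of all genes were past it higher and 4.32% lower. Beside Anpep, the 12 perivascular fibroblast genes summed to 145.7 CPM in icKO input and 112.4 CPM in control input, and their part in the Anpep value was not tested. Of that list Col1a1 differed most in CPM (29.7 in icKO input, 12.6 in control input). Lum (1.07 and 1.37) and Pdgfrl (0.633 and 1.23) were lower in icKO input. Beside Rgs5, Abcc9 and Kcnj8, the 16 endothelial genes summed to 224.3 CPM in icKO input and 316.5 CPM in control input, and their part was not tested either.

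A further list of 24 pericyte genes held the surface, transport and transcription factor genes often found in these cells. Of 23 tested, 1 rose and 20 fell in icKO IPs relative to control IPs (median log2 -0.72), while scaled to mature oligodendrocyte genes 5 rose and 6 fell (median -0.03). In IP over input 18 rose and 2 fell (median 2.73). The largest falls were those of Gjc1, the connexin-45 gene (8.74 and 9.38 CPM in icKO IPs, 21.6 and 21.3 CPM in control IPs, log2 -1.24 ± 0.11), and Cox4i2, an oxygen-responsive cytochrome oxidase subunit (8.47 and 8.28 CPM in icKO IPs, 19.6 and 17.8 CPM in control IPs, -1.15 ± 0.12). They were followed by Cd248, the endosialin gene (-1.06 ± 0.06), and Art3, an ADP-ribosyltransferase family gene (-1.04 ± 0.09). All 4 passed edgeR's quasi-likelihood test, the largest adjusted p being 1.47e-09. Steep rises over input were those of Cspg4 (41.4-fold), the purinergic receptor gene P2ry14 (19.5-fold) and the amino acid transporter gene Slc38a11 (16.3-fold). The gene called higher was Cspg4, whose direction turned as given above, and those below input were Rgs4 and Cygb, named after their values were seen.

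Genes that act around the pericyte receptors were called in both directions with TMM. Of 25 genes of the PDGF-B and linked growth factor pathways, 3 rose and 7 fell in icKO IPs relative to control IPs (median log2 -0.19), but 18 rose and 0 fell when scaled to mature oligodendrocyte genes (median 0.50). In IP over input 12 rose and 9 fell (median 0.27). Eng, the endoglin co-receptor gene (-0.70 ± 0.10), Tgfbr2, a TGF-β receptor gene (-0.58 ± 0.14), and the adaptor gene Shc1 (-0.33 ± 0.11) fell with TMM, their values scaled to mature oligodendrocyte genes being -0.01, 0.11 and 0.35, while Nrp1, the neuropilin-1 gene, rose by 0.41 ± 0.09 and stayed above 0 with every scaling. The ligand gene Pdgfb, made by endothelium among other cells, lay below input (log2 -1.46 ± 0.12), and Pdgfra, the receptor gene of precursors, lay 37-fold above it. Pdgfra was at 2190 and 2190 CPM in icKO IPs, against 2240 and 2240 CPM in control IPs, a change of -0.03 that did not pass (adjusted p = 0.226). Of 25 further Notch pathway genes, 1 rose and 10 fell in icKO IPs relative to control IPs (median -0.17), but 20 rose and 0 fell when scaled to mature oligodendrocyte genes (median 0.52). In IP over input 16 rose and 4 fell (median 0.49). The target gene Heyl, which is known from mural cells, was at 21.1 and 22.1 CPM in icKO IPs and 4.82 CPM in icKO input, against 34.0 and 34.3 CPM in control IPs and 5.29 CPM in control input. Its IP groups did not overlap (-0.66 ± 0.08, adjusted p = 6.41e-08), and scaled to mature oligodendrocyte genes its change was 0.03. Psenen, a γ-secretase subunit gene (-0.88 ± 0.13), and the Notch feedback gene Nrarp (-0.48 ± 0.09) also fell with TMM, at -0.19 and 0.21 when scaled to mature oligodendrocyte genes, and the ligand gene Jag2 rose by 0.53 ± 0.10.

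Channel and G-protein genes that act beside Kir6.1 and RGS5 were called in both directions. Of 24 tested, 10 rose and 7 fell in icKO IPs relative to control IPs (median log2 0.01), and 20 rose and 0 fell when scaled to mature oligodendrocyte genes. In IP over input 7 rose and 15 fell (median -0.57). Ano1, a calcium-activated chloride channel gene of contractile vessel cells, fell (19.1 and 19.8 CPM in icKO IPs, 33.9 and 35.2 CPM in control IPs, -0.83 ± 0.09), as did the inhibitory G-protein gene Gnai2 (-0.71 ± 0.03), and neither passed when scaled to mature oligodendrocyte genes (-0.14 and -0.02). The genes of the other ATP-sensitive potassium channel, SUR1 and Kir6.2, differed from Abcc9 and Kcnj8. Abcc8 rose by 0.61 ± 0.11 (21.8 and 19.4 CPM in icKO IPs, 14.2 and 12.9 CPM in control IPs), and Kcnj11 lay below input (log2 -1.67 ± 0.11). Cacna1d, a voltage-gated calcium channel gene, also rose (0.60 ± 0.04).

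Cells that share markers or a place with pericytes were followed through lists of their own. The 15 vascular smooth muscle genes summed to 165.7 and 155.5 CPM in icKO IPs, 47.3 CPM in icKO input, 271.8 and 285 CPM in control IPs and 49.6 CPM in control input, and 0 rose and 12 fell between IPs (median log2 -0.90), while scaled to mature oligodendrocyte genes 1 rose and 3 fell (median -0.21). They rose over input too (12 of 15, median 1.66), with Des, the desmin gene, 13.6-fold, Myh11, the smooth muscle myosin gene, 8.98-fold and Acta2, the smooth muscle actin gene, 7.31-fold above it. No marker of this list was at 0 in all libraries, and Pln and Actg2 were at 0 in at least 1. Smooth muscle cells also make Pdgfrb, Notch3 and Rgs5, and what part of the pericyte values they gave was not tested. The 16 endothelial genes summed to 205.4 and 215.3 CPM in icKO IPs, 224.3 CPM in icKO input, 286.6 and 290.3 CPM in control IPs and 316.5 CPM in control input. Between IPs 1 rose and 5 fell (median -0.34), but 8 rose and 0 fell when scaled to mature oligodendrocyte genes, and over input 2 rose and 11 fell (median -0.59), with the tight junction gene Cldn5 at 0.186 of input. The 12 perivascular fibroblast genes summed to 109.5 and 99.7 CPM in icKO IPs, 145.7 CPM in icKO input, 96.1 and 99.6 CPM in control IPs and 112.4 CPM in control input. Of 9 tested between IPs, 2 rose and 2 fell with TMM, and 6 rose and 0 fell when scaled to mature oligodendrocyte genes, and over input 2 of 10 rose and 6 fell (median -0.49), with the matrix gene Dcn at 0.204 of input and the collagen gene Col3a1 1.75-fold above it. No endothelial and no fibroblast marker was at 0 in all libraries, and of the fibroblast markers Dpep1 and Mfap5 were at 0 in at least 1. With TMM, for neurons 5 of 12 genes rose and 3 fell between IPs, for astrocytes 6 of 10 rose and 1 fell, and for microglia 1 of 10 rose and 2 fell. Scaled to mature oligodendrocyte genes, 12 neuronal, 10 astrocyte and 7 microglial genes rose and 0 fell. Of 5 erythrocyte genes 1 was tested, Alas2, which fell (-0.95 ± 0.25) and lay below input, and the 4 globin genes were listed at 0 in all libraries.

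**Figure D4:**
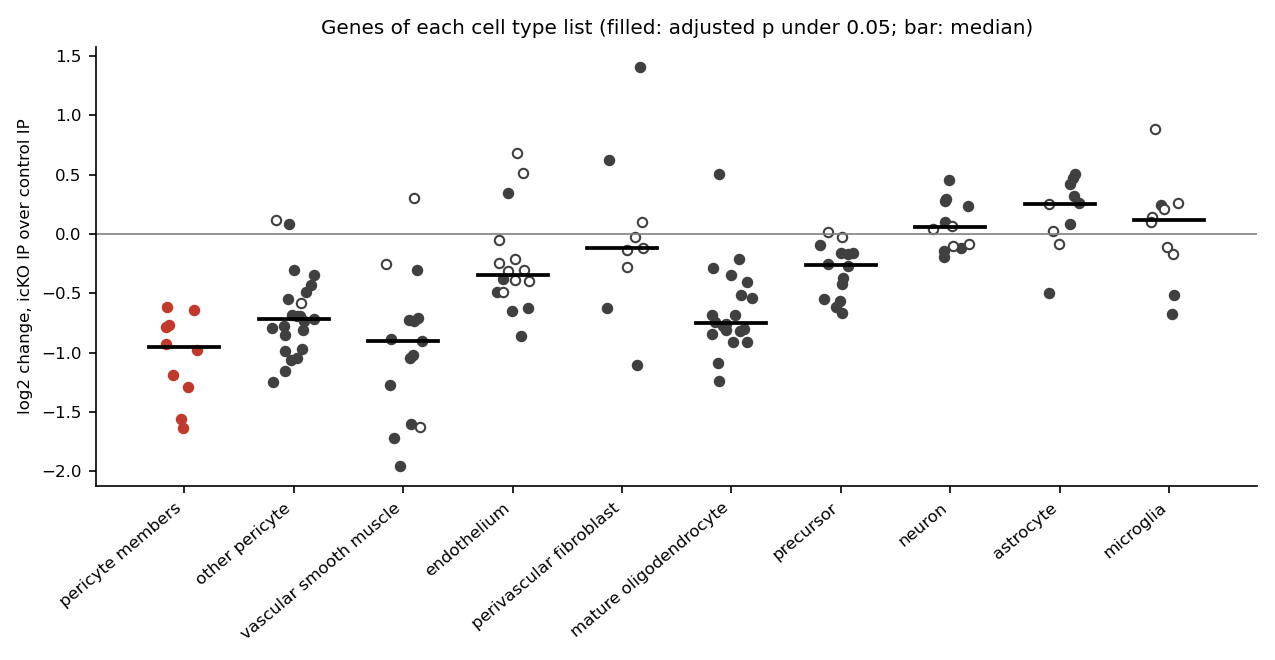
Log2 change, icKO IP over control IP (vertical axis), of each tested gene of 10 lists, 1 dot per gene, filled where the adjusted p was under 0.05 and with a bar at the median. Medians lie at -0.96 for the 10 pericyte genes, -0.72 for other pericyte genes, -0.90 for vascular smooth muscle, -0.34 for endothelium, -0.75 for mature oligodendrocytes and -0.26 for precursors, and above 0 for neurons, astrocytes and microglia.

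Among 11531 other genes with a mean IP level of at least 5 CPM, the 5 whose log2 profile over the 6 libraries lay nearest to the mean profile of the 10 were Cd248 (Euclidean distance 0.285), Enpep (0.288), Gper1 (0.289), Pllp (0.332) and Slc38a11 (0.335). The 10 genes themselves lay at 0.262 (Vtn) to 1.18 (Anpep) from that mean. Cd248, Enpep, Gper1 and Slc38a11 are also in the list of other pericyte genes, and Pllp encodes plasmolipin, a membrane protein of myelin. Cd248 was at 32.7 and 35.4 CPM in icKO IPs and 5.11 CPM in icKO input, against 70.5 and 71.9 CPM in control IPs and 5.74 CPM in control input. Enpep, the aminopeptidase A gene, was at 23.5 and 24.9 CPM in icKO IPs and 2.53 CPM in icKO input, against 42.1 and 40.8 CPM in control IPs and 2.60 CPM in control input. Both had separate IP groups, and Enpep was 12.6-fold above input, near the enrichment of Atp13a5 and Notch3. Pllp, at 191 and 202 CPM in icKO IPs and 28.6 CPM in icKO input, against 334 and 336 CPM in control IPs and 29.7 CPM in control input, thus had a profile of much this shape without being a gene of pericytes.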

How the data were processed

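RNA of 6 mouse brain libraries was analysed as raw read counts per gene symbol, deposited by the authors without normalization. The submitters' processing notes name Trimmomatic 0.39, STAR 2.7.10b and the build mm10. Which counter and annotation were used, and with what strand setting, is not given in the sources used here. Groups came from the sample titles, 1 of which, that of icKO IP replicate 1, has cKO for icKO. Of 24421 genes, 10 were blank in the inputs and left out.

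After TMM scaling, edgeR 4.0.16 (R 4.3.3) was used for quasi-likelihood F tests, two-sided, on genes that passed filterByExpr. The threshold was a Benjamini-Hochberg adjusted p of 0.05 over all genes tested. The genotypes were compared in the 4 IP libraries alone (15069 genes, TMM factors of that fit). IP over input and its difference between genotypes used all 6 libraries (15451 genes, coefficient of variation 8.61% in the fit with genotype). Standard errors are the log2 change over the square root of F. Input ratios had a prior count of 2 and no test. The labels call the IPs biological replicates and do not say that their pools held different mice, so the spread may be technical. The tests were also run on simulated counts, in which the inputs were given the same spread as the IPs. Only genes with higher counts were changed there. That run therefore cannot check the spread of the single inputs or the genes with few input counts. Exon lengths, for 96% of genes tested, came from GENCODE vM21. Alternatives were run with DESeq2 1.42.0 among others, including a scaling to precursor genes added after seeing the data.

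The 10 genes, the 13 lists and the tests were chosen with earlier results of these data known. Named were the 10 genes, Ank3, Rpl22 and Cspg4, up to 4 genes of each list with the largest change past the threshold in each tested comparison (mean of at least 1 CPM), and the 5 nearest profiles, computed with a pseudocount of 0.5 CPM. Not every gene that this rule allows is reported here. Gene lists matched 211 of 213 symbols. Rpl22, the tagged gene, had a log2 change of -0.22 between IPs (adjusted p = 0.00779).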

Additional observations from a re-analysis of the deposited data

Results flagged for a closer look

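The enrichment of IP over input differed between genotypes, by the test of the difference itself, for 8 of the 10 pericyte genes. All 8 were lower in icKO, where 14.2% of all genes were called lower and 10.3% higher. In the same test 18 of 20 mature oligodendrocyte and 12 of 14 precursor genes were called lower. So were 9 of 23 other pericyte genes and 5 of 15 vascular smooth muscle genes, with 0 called higher in either list. Whether the 10 genes differ from any of these lists was not tested. The difference of the log2 enrichment, icKO minus control, was -1.73 for Ndufa4l2, -1.59 for Anpep, -1.03 for Vtn, -0.88 for Pdgfrb, -0.87 for Notch3, -0.67 for Atp13a5, -0.62 for Rgs5 and -0.45 for Abcc9. Their adjusted p ran from 8.07e-12 (Vtn) to 0.0382 (Abcc9) in edgeR's quasi-likelihood test. Each rests on 1 input library per genotype. For Anpep the icKO input was higher than the control input (6.04 CPM in icKO, 3.15 CPM in control), whereas for Rgs5 and Abcc9 it was lower (13.0 and 7.45 CPM in icKO, 19.2 and 10.8 CPM in control).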

How the results depend on the processing

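Of 140 recomputed changes between IPs, 136 kept direction and call. Scaled to mature oligodendrocyte genes, Anpep was at 0.0453 and Atp13a5 at 0.0755, reversed and not called, Notch3 at -0.0739 was not called, and 12707 genes were called higher and 110 lower. Scaled to endothelial genes, which moved the median of all genes up by 0.46, Anpep at -0.19 was not called, and 10170 were called higher and 366 lower. The largest parts of that endothelial sum, 286.6 CPM in control IP replicate 1, were Mfsd2a at 100 CPM and Slc2a1 at 65.9 CPM. Mfsd2a lay 7.29-fold above input, unlike most genes of the list. Scaled to precursor genes these counts were 7123 and 1251. The cause was not tested beyond that shift. The 20 recomputed input ratios, which had no test, kept their direction. All 140 recomputed values of IP over input kept direction and call, as did 69 of 70 differences of enrichment, Abcc9 without icKO IP replicate 1 being the exception (-0.40, adjusted p = 0.0509). With the replicate number as a block the change of Pdgfrb was -0.79 and 10 members were called lower. Same-numbered IPs did not deviate together (correlation -0.0054), the labels state no pairing, and 2 pairs decide nothing. Depth limits Higd1b, Ndufa4l2 and Kcnj8, with 15 to 72 counts in the inputs, and also Anpep, with 69 counts in control input and 124 in icKO input.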
